A study of Mus musculus with 23 samples.

Results

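The 10 genes described here encode neurofilament subunits (Nefl, Nefm, Nefh and Ina), structural microtubule-associated proteins or MAPs (Map1a, Map1b, Map2 and Mapt) and stathmins (Stmn1 and Stmn2). They were taken by symbol, through their Ensembl identifiers in the GRCm39 annotation, from the 56941 genes of the count tables. All 10 passed the filter on low counts, and their counts ran from 445 in one library (Nefh) to 37195 in another (Map1b). The RNA came from cultured hippocampal neurons of newborn (P0) mice homozygous for NEDD8cKO, an allele with LoxP sites around exons 2 and 3 of Nedd8, made in FVB/N zygotes and, by the reporting summary, kept in C57BL/6N. The neurons were infected with lentivirus that encodes RFP (RFP libraries, the control) or CRE recombinase tagged with RFP (CRE libraries) under the Synapsin1 promoter. RNA was taken after 12 days in culture by the labels, while the paper's Methods give a later day. Both groups carried the floxed allele, so that the groups differ by the virus. The promoter is known to be active in neurons, and the cultures also held glia, by the markers given last.

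Neurofilaments are the intermediate filaments of the axon. A light (Nefl), a medium (Nefm) and a heavy chain (Nefh) assemble with internexin alpha (Ina) into a lattice that sets axon calibre. The structural MAPs bind along microtubules and space and stabilize them, with MAP2 in dendrites and cell bodies, tau (Mapt) mainly in axons, MAP1B high in growing neurites and MAP1A later in maturation. Stathmins do the opposite: they bind tubulin dimers and promote microtubule disassembly, and stathmin 2 (SCG10) is used as a marker of growing and regenerating axons.

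Of the 23 libraries (12 CRE, 11 RFP), 21 were compared, 11 CRE and 10 RFP, the set of the count table in the authors' supplement, which leaves out Nedd8Cre3-3 (1546796 counts) and Nedd8RFP3-2. The authors' Methods name another pair as removed, Nedd8Cre1-3 and Nedd8Cre3-3, so that the main comparison here holds a library that Methods removed. Counts of the 21 summed to between 7430401 and 13345552 in CRE and between 9833872 and 17112815 in RFP libraries. The number before the hyphen of a library name is read as 1 of 3 cultures, and dishes of one culture may be technical replicates, in which case p-values measure only the spread between these libraries. Differences given by culture are between CRE and RFP libraries that carry the same number, and that these came from the same preparation was not taken as given. Nedd8 itself, the targeted gene, was 11.5 ± 3.49 CPM (counts in 1000000 counts of the scaled library, SD, n = 11) in CRE and 61.4 ± 10.2 CPM (n = 10) in RFP libraries, without overlap. Nedd8Cre1-3 and Nedd8RFP2-4, both among the 21, and the excluded Nedd8Cre3-3 stood apart: mitochondrial genes held 0.261%, 3.43% and 1.83% of their counts, against 6.997 to 11.1% in the other 20 libraries, and their levels rose with transcript GC content (Spearman's rho 0.743, 0.470 and 0.556 over 14574 genes, against -0.210 to 0.213).

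CRE libraries held less RNA of both stathmins and of Map2 and Map1b than RFP libraries. They held more of Nefm, which was called in only 10 of 15 alternative fits. At an adjusted p under 0.05 (edgeR's quasi-likelihood test, Benjamini-Hochberg adjustment over 14488 genes), 4 of the 10 genes were lower in CRE (13.8% of all genes tested were) and 1 was higher (16.4% of all genes tested were). Together 5 of 10 were called, where 30.2% of all tested genes were. The median log2 fold change of the 10 genes was -0.20, beside 0.02 over all genes tested, and 7 of the 10 values were negative. None of the 10 genes separated the groups fully, while 2.08% of tested genes lay lower and 2.64% higher in CRE without any overlap. In such bulk RNA, fewer cells that express a gene and less of its RNA per cell cannot be told apart.

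**Figure D1:**
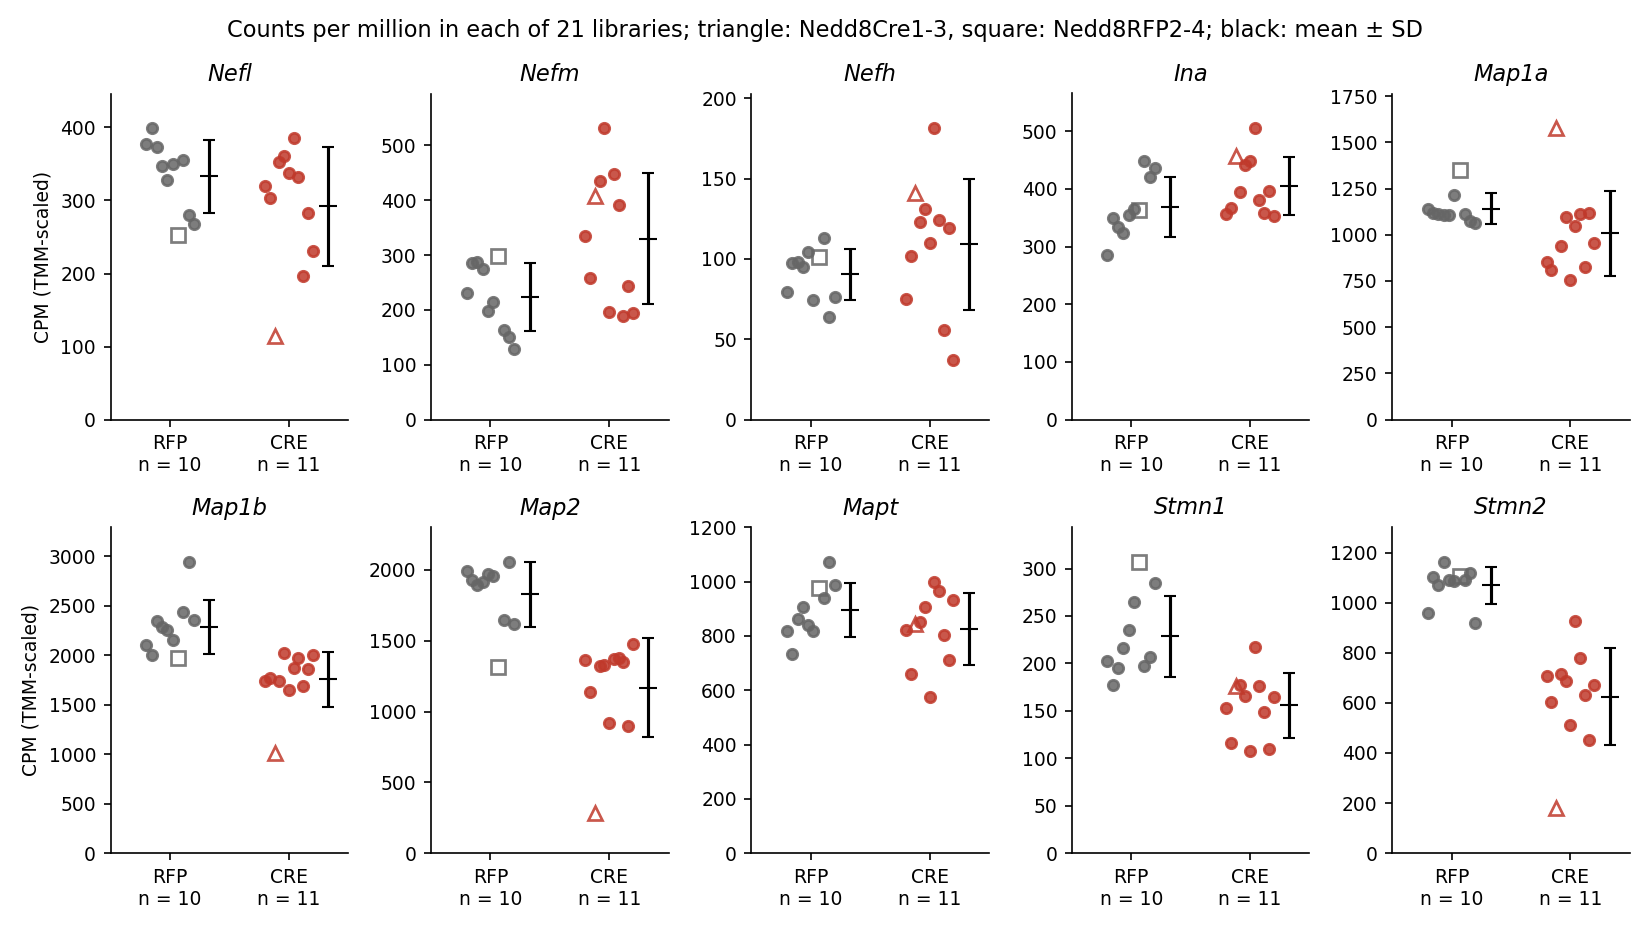
CPM (TMM-scaled) of the 10 genes on the vertical axis, in each of the 10 RFP (grey) and 11 CRE (red) libraries, with the mean ± SD in black. The open triangle is Nedd8Cre1-3 and the open square Nedd8RFP2-4. Stmn2 was at 919 CPM or above in every RFP library and at 928 CPM or below in every CRE library, while Nefl, Nefh and Mapt overlapped widely.

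Stmn2 had the largest fitted change of the 10. Its RNA was 181 CPM in the lowest, 670.1 CPM in the median and 928 CPM in the highest CRE library, and 919, 1091 and 1162.5 CPM in the RFP libraries. The groups met in a single CRE library, Nedd8Cre2-3, and the other 10 lay below all RFP libraries. The log2 fold change was -0.80 (SE 0.17, adjusted p = 0.000612), a level lower by 42.5% (95% interval of the log2 value -1.14 to -0.46). Without Nedd8Cre1-3, the lowest library, it was -0.70 (adjusted p = 7.24e-07).

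Stmn1, the ubiquitous stathmin, which is also abundant in dividing cells, fell as well. It measured 107, 164 and 218 CPM (lowest, median and highest) in CRE and 177, 211 and 307 CPM in RFP libraries. Of the 11 CRE libraries, 9 lay below all RFP libraries. Its log2 fold change was -0.57 (SE 0.13, adjusted p = 0.0013), or 32.8% lower, and -0.59 without Nedd8Cre1-3 (adjusted p = 0.000293). Both stathmins were lower in CRE in each of the 3 cultures, by 0.64 to 1.10 on the log2 CPM scale for Stmn2 and by 0.32 to 0.70 for Stmn1. The value of 1.10 is that of culture 1, where Stmn2 was 181 CPM in Nedd8Cre1-3 and 604 to 715 CPM in the other CRE libraries. Exons of Stmn1 share 699 bases with 1700021N21Rik on the opposite strand and 91 bases with Gm55612 on the same strand, where a strand setting would not help. The strand setting of the counting is not given in the sources used here. In contrast, no annotated exon overlaps those of Stmn2.

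Map2, the dendritic MAP, measured 282, 1328 and 1479 CPM in CRE and 1316, 1920.4 and 2056 CPM in RFP libraries (lowest, median and highest). Apart from Nedd8RFP2-4 at 1316 CPM, every RFP library lay above every CRE library. The log2 fold change was -0.67 (SE 0.18, adjusted p = 0.0056), or 37.1% lower. Leaving out Nedd8Cre1-3, where Map2 was lowest, gave -0.56 with a narrower interval (-0.75 to -0.37 in place of -1.04 to -0.30, adjusted p = 1.85e-05). The difference was -1.15, -0.52 and -0.54 in cultures 1, 2 and 3 on the log2 CPM scale. Culture 1 holds Nedd8Cre1-3, at 282 CPM, while its other CRE libraries measured 1140 to 1364 CPM.

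Map1b, the MAP of growing neurites, fell by 0.40 on the log2 scale (SE 0.11, adjusted p = 0.00524), or to 24.1% below RFP. Its levels were 1013.5, 1770.5 and 2020.1 CPM in CRE and 1975, 2271 and 2943 CPM in RFP libraries, with 9 of 11 CRE libraries below all RFP libraries. It was lower in each culture, by 0.49, 0.21 and 0.48 on the log2 CPM scale. In culture 1, Map1b was 1013.5 CPM in Nedd8Cre1-3 and 1740.5 to 1770.5 CPM in the other CRE libraries. Leaving out culture 2, which leaves 7 CRE and 6 RFP libraries, ended the call of Map1b (-0.49, adjusted p = 0.0586) and of Map2 (-0.73, adjusted p = 0.0801).

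Map1a, the relative of Map1b in mature neurons, was not called over the 21 libraries: its log2 fold change was -0.20 (SE 0.11, adjusted p = 0.189). It measured 757, 953 and 1575 CPM in CRE and 1061.5, 1111 and 1349 CPM in RFP libraries. The call depended on the libraries kept. Of the 11 CRE levels, 7 were under the RFP minimum, while Nedd8Cre1-3 had the highest level of all, 1575 CPM. Without Nedd8Cre1-3, Map1a fell by 0.28 on the log2 scale (adjusted p = 0.00504). The fall was 0.24 over the libraries that Methods left (adjusted p = 0.0129). Once each library's trend with GC content was removed, it was 0.27 over the 21 libraries (adjusted p = 0.00208). Map1a was called in 4 of 15 alternative fits. Leaving out culture 1, which holds Nedd8Cre1-3, did not give a call (-0.23, adjusted p = 0.109). Neither did leaving out culture 2 (-0.13, adjusted p = 0.655) or culture 3 (-0.23, adjusted p = 0.306). Counts summed per culture gave -0.26 (adjusted p = 0.0843). Mapt, which encodes tau, gave 577, 844 and 999.9 CPM in CRE and 733, 885 and 1072 CPM in RFP libraries, which overlapped for most libraries. Its log2 fold change was -0.14, with an interval from -0.34 to 0.07 (adjusted p = 0.336). The fitted value of Map2 (-0.67) lies outside this interval, although the interval of Map2 (-1.04 to -0.30) overlaps it.

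**Figure D2:**
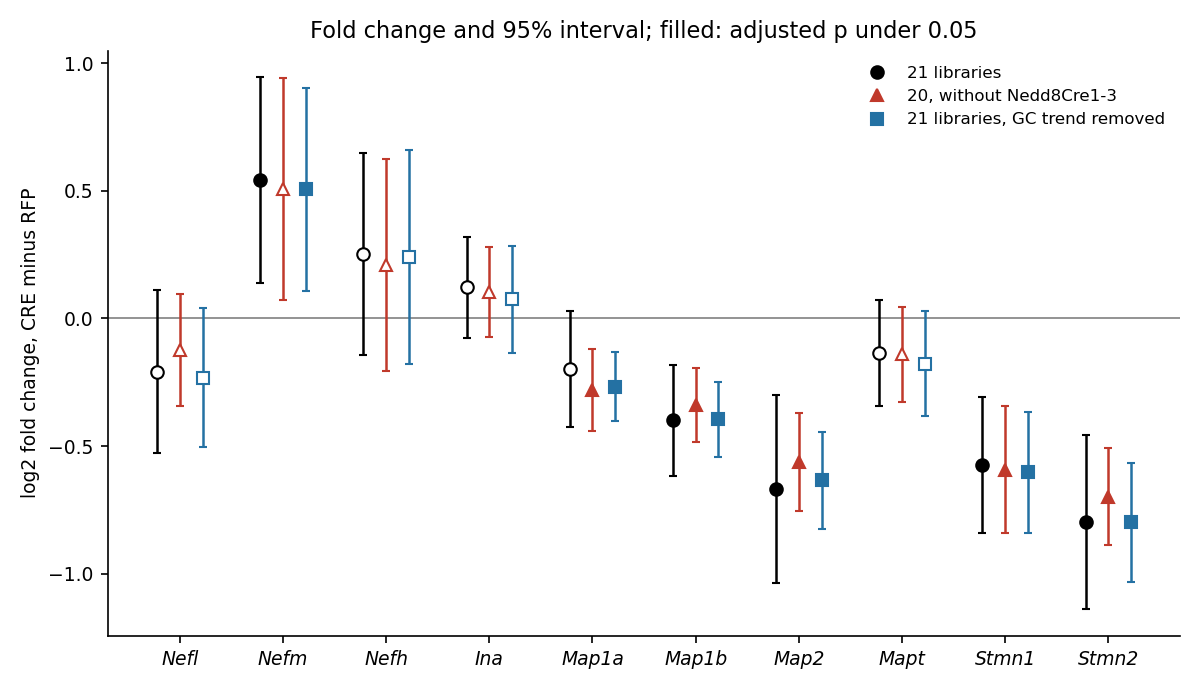
Log2 fold change of each gene, CRE minus RFP, with its 95% interval, over the 21 libraries (circles), over the 20 left without Nedd8Cre1-3 (triangles) and over the 21 with each library's GC trend removed (squares). Filled symbols mark an adjusted p under 0.05. Stmn1, Stmn2, Map1b and Map2 were called in all 3, Map1a in the last 2, and Nefm (0.54) was not called without Nedd8Cre1-3.

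The promoter sequences of 4 of the 10 genes were at hand, from RefSeq, and are printed so that the called Map2 and Map1b can be read beside Map1a and Ina. RefSeq's windows, of build GRCm38.p6, each matched GRCm39 exactly and at one place. Shown is the part of the 250 bases before the RefSeq start that lies upstream of the first annotated exon of the gene, 5′ to 3′ on the gene's strand, with GC boxes (GGGCGG, either strand) in capitals. The stretches are chr1:66214238-66214326 (plus strand, Map2), chr13:99653138-99653360 (minus strand, Map1b), chr2:121119833-121120070 (plus strand, Map1a) and chr19:47002870-47003068 (plus strand, Ina), all in GRCm39.
Map2: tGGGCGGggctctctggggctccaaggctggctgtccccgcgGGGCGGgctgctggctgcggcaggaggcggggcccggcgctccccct
Map1b: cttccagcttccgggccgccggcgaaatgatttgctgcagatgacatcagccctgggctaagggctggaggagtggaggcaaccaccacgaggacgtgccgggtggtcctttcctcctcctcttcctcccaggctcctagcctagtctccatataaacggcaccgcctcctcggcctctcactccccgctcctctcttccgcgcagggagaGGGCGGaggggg
Map1a: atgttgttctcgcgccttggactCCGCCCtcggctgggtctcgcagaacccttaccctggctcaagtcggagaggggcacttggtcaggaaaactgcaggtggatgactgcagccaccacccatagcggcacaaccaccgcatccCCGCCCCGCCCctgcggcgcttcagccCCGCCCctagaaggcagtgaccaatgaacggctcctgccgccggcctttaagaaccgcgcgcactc
Ina: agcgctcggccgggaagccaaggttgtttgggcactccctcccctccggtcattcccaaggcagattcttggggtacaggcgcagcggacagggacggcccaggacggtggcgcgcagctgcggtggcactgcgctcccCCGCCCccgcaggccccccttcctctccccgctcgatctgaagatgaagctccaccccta

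These stretches had a GC content of 80.9% (Map2, 89 bases), 64.6% (Map1b), 65.1% (Map1a) and 68.8% (Ina). Over the whole 250 bases, Map2 held 5 GC boxes, Map1a 4 (2 of them overlapping each other), Ina 2 and Map1b 1, and 32.7% of all 32851 RefSeq promoters held at least 1. E-boxes (CANNTG) numbered 2 before Map1a and 1 each before Map1b and Ina, with 66.2% of all promoters holding one. Map1b alone of the 4 held a TATA box (TATAAA, 12.4% of promoters) and Map1a alone a CCAAT box (CCAAT, 33.8%), while none held the cAMP response element TGACGTCA (1.5%). A match of letters is a description of the window, and the counts of RNA do not bear on which factor binds there.

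Among the neurofilament subunits, only Nefm, the medium chain, was called, and it was higher in CRE. It measured 189, 335 and 531 CPM in CRE and 128, 223 and 298 CPM in RFP libraries (lowest, median and highest). Of the 11 CRE libraries, 6 lay above all RFP libraries and 5 overlapped with them. The log2 fold change was 0.54 (SE 0.20, adjusted p = 0.0368), or 45.7% higher, and the difference was 0.40, 0.59 and 0.50 on the log2 CPM scale in cultures 1, 2 and 3. The level also differed between cultures: RFP libraries of culture 3 measured 128 to 163 CPM and those of culture 1 measured 231 to 287 CPM. The call did not hold without Nedd8Cre1-3 (0.51, adjusted p = 0.0622) or without culture 1 (0.60, adjusted p = 0.114) or culture 2 (0.50, adjusted p = 0.196), although the direction stayed.

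Nefl, the light chain that the filament needs for assembly, was not called, with a log2 fold change of -0.21 (interval -0.53 to 0.11, adjusted p = 0.34), and -0.12 without Nedd8Cre1-3 (interval -0.34 to 0.10, adjusted p = 0.394). It measured 114, 319 and 385 CPM in CRE and 253, 349 and 399 CPM in RFP libraries, with 3 CRE libraries below all RFP libraries. Its direction differed between cultures, at -0.62, 0.16 and -0.35 on the log2 CPM scale. In culture 1, Nefl was 114 CPM in Nedd8Cre1-3 and 303 to 352 CPM in the other CRE libraries. Nefl and Nefm overlap on chromosome 14 of GRCm39, where the annotated span of Nefl (68321268 to 68326544, plus strand) lies within that of Nefm (68320039 to 68362305, minus strand), and their annotated exons share 1152 bases on opposite strands. Reads from these bases cannot be told apart between them unless the counting used strand.

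Nefh, the heavy chain that is added late in axon maturation, was the least abundant of the 10 per transcript length. It measured 37.3, 119 and 181 CPM in CRE and 64.0, 96.3 and 113 CPM in RFP libraries, where 6 CRE libraries lay above and 2 below every RFP library. The log2 fold change was 0.25 (interval -0.14 to 0.65, adjusted p = 0.353). Ina, the subunit expressed early in development, measured 354, 395 and 505 CPM in CRE and 286, 359 and 449 CPM in RFP libraries, with a log2 fold change of 0.12 (interval -0.08 to 0.32, adjusted p = 0.379). Both genes were higher in CRE in cultures 1 and 2 (by 0.23 and 0.53 on the log2 CPM scale for Nefh and by 0.29 and 0.33 for Ina) and lower in culture 3 (by 0.38 and 0.24).

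To compare levels between genes, CPM was divided by the length of the canonical transcript. Per kilobase, Stmn2 was the most abundant of the 10 in RFP libraries, at 500.3 ± 34.7 CPM per kb (SD, n = 10), above Map1b in 10 of 10 libraries. Map1b (192 ± 23.3) and Map2 (188 ± 23.7) did not differ beyond their spread, with Map1b higher in 5 of 10 libraries. Mapt (141), Stmn1 (128), Ina (113), Map1a (98.8) and Nefl (97.3 CPM per kb) followed, each neighbouring pair overlapping in range. Nefm (66.7 ± 18.6) was lower than Nefl in 9 of 10 libraries, and Nefh (22.2 ± 3.87) lower than Nefm in all 10. In CRE libraries Stmn2 remained the first (292 ± 90.6), and Nefm (98.6 ± 35.9) had a higher mean than Nefl (85.3 ± 23.8 CPM per kb).

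The balance between related genes was compared as the ratio of their counts within each library, which library size and scaling do not affect. Among 6 such ratios, 2 differed between the groups (two-sided permutation test with 100000 resamples, adjusted over the 6). The ratio of Mapt to Map2 counts was 0.580, 0.644 and 2.99 in CRE and 0.380, 0.465 and 0.741 in RFP libraries (lowest, median and highest). Its log2 value was higher in CRE by 0.62 (adjusted p = 0.00312), and by 1.13, 0.45 and 0.24 in cultures 1, 2 and 3. In culture 1 the ratio was 2.99 in Nedd8Cre1-3 and 0.580 to 0.644 in the other CRE libraries. In the fit of single genes, the fitted level of Map2 was 37.1% and that of Mapt 9.04% below RFP.

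The ratio of Nefm to Nefl counts was 0.578, 1.05 and 3.57 in CRE and 0.460, 0.611 and 1.18 in RFP libraries. The part of their 1152 shared exon bases in this ratio was not tested. The log2 ratio was higher in CRE by 0.77 (adjusted p = 0.00606), and by 1.02, 0.44 and 0.85 in the 3 cultures. Each ratio was highest in Nedd8Cre1-3, a library of culture 1, in CRE and in Nedd8RFP2-4 in RFP, the libraries with a GC trend. Without Nedd8Cre1-3 the differences were 0.42 for Mapt over Map2 (adjusted p = 0.0102) and 0.60 for Nefm over Nefl (adjusted p = 0.0115). Without culture 1, which leaves 7 libraries in each group, neither ratio passed the threshold, at 0.36 and 0.62 (exact permutation tests, adjusted p = 0.0857 for both).

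The other ratios did not pass the threshold. Nefh over Nefl differed by 0.42 on the log2 scale (adjusted p = 0.133), Ina over Nefl by 0.39 (adjusted p = 0.105) and Map1a over Map1b by 0.19 (adjusted p = 0.339, permutation tests). Stmn2 over Stmn1 gave -0.31 (adjusted p = 0.174), with a median of 4.23 in CRE and 5.06 in RFP libraries. Nedd8Cre1-3 set much of all 4 values: without it they were 0.24 for Nefh over Nefl, 0.24 for Ina over Nefl, 0.04 for Map1a over Map1b and -0.12 for Stmn2 over Stmn1.

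**Figure D3:**
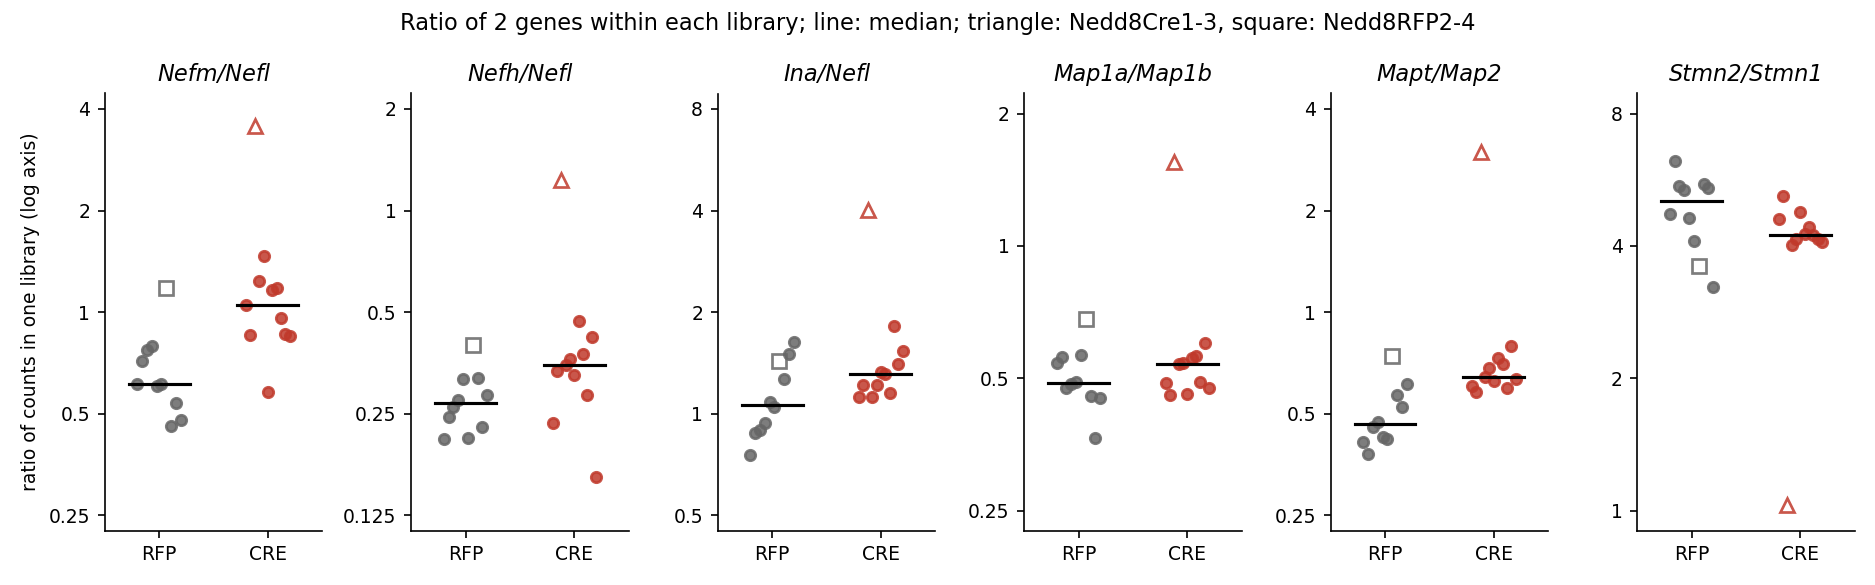
Ratio of the counts of 2 genes within each of the 10 RFP (grey) and 11 CRE (red) libraries, on a log axis, with the median as a line. The open triangle is Nedd8Cre1-3, which has the highest or lowest ratio in every panel, and the open square Nedd8RFP2-4. Median Nefm/Nefl was 0.611 in RFP and 1.05 in CRE, and median Mapt/Map2 was 0.465 and 0.644.

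The 10 genes differ in the GC content of their transcripts, from 43.8% (Map2) through 46.1% (Stmn2), 47.7% (Map1b), 49.0% (Nefl), 51.5% (Stmn1), 53.5% (Nefm), 54.6% (Mapt), 54.8% (Map1a) and 55.6% (Ina) to 58.7% (Nefh). In Nedd8Cre1-3 the 4 genes of lowest GC content lay below the 10 CRE libraries that did not stand apart, by 2.24 (Map2), 1.90 (Stmn2), 0.84 (Map1b) and 1.51 (Nefl) below their median on the log2 CPM scale, and Map1a lay above them by 0.74. Nedd8Cre3-3 had Map2, Stmn2 and Nefl below those libraries too, by 1.66, 1.53 and 2.26 below their median. Map1b there was only just below their lowest value (1638.4 beside 1644.6 CPM), at 0.15 below the median. Over the 10 genes, the deviation correlated with GC content at a Pearson's r of 0.895 in Nedd8Cre1-3 (Spearman's rho 0.830), 0.799 in Nedd8Cre3-3 (0.842) and 0.589 in Nedd8RFP2-4 (0.552), values that describe 10 points sharing a library.

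The difference between the groups also followed GC content over the 10 genes, with an r of 0.779 (rho 0.818) in the 21 libraries and 0.711 (rho 0.770) in the 19 left without Nedd8Cre1-3 and Nedd8RFP2-4, beside a rho of 0.117 and -0.001 over 14449 tested genes. With each library's GC trend removed, the log2 fold change was -0.80 for Stmn2, -0.60 for Stmn1, -0.64 for Map2 and -0.40 for Map1b, with adjusted p of 2.71e-06, 0.000147, 4.04e-06 and 7.41e-05, and 0.51 for Nefm (adjusted p = 0.0415).

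**Figure D4:**
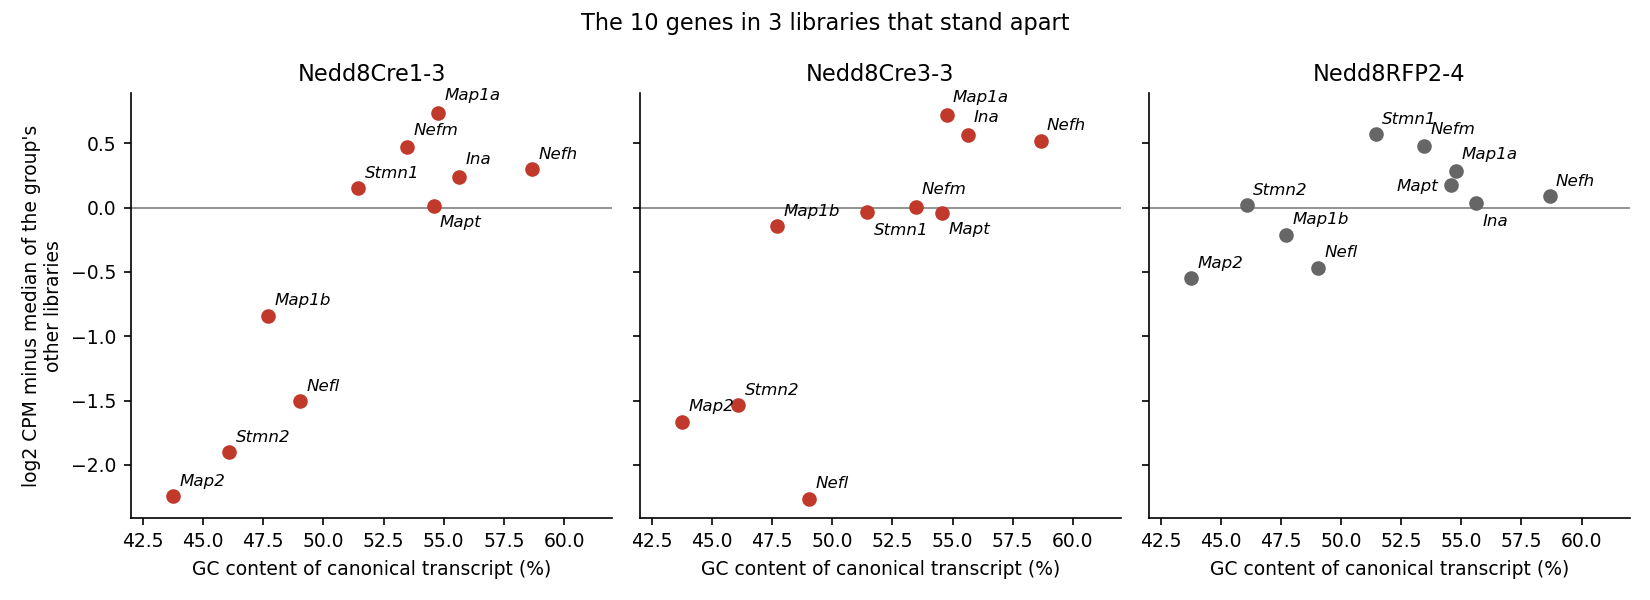
Log2 CPM of the 10 genes in Nedd8Cre1-3, Nedd8Cre3-3 and Nedd8RFP2-4, minus the median of the group's libraries that do not stand apart, against the GC content of each gene's canonical transcript. Map2 was 2.24 below the median in Nedd8Cre1-3 and Map1a 0.74 above it.

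Within a condition, some of the members varied alike from library to library. Over all 45 pairs, after the group mean was subtracted from log2 CPM, Pearson's r ran from -0.324 (Ina with Map2) to 0.790, with a median of 0.280 and 9 negative values. The highest values were those of Nefl, which followed Nefm (Pearson's r 0.790, Spearman's rho 0.825) and Nefh (0.781 and 0.653) over the same 19 libraries, while Ina followed Nefl at 0.126 and 0.154. Exons of Nefl and Nefm share 1152 bases, and the part of this overlap in their likeness was not tested. Map2 followed Stmn2 (0.777 and 0.647), and Mapt followed Stmn1 (0.757 and 0.689) and Map1b (0.727 and 0.788). Among all other genes tested, the likeness over the 21 libraries was highest for Psd3 (0.988) and Nexmif (0.984) with Map2, for Rtn3 (0.957) and Ndrg3 (0.956) with Stmn2, and for Tpgs2 (0.920) and Etf1 (0.910) with Nefl. Over the 19 libraries these were 0.918, 0.878, 0.894, 0.801, 0.790 and 0.731. All of these values describe libraries that share cultures and depth.

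Genes that act with the 10 were followed in 7 further lists of cytoskeleton genes. Of 110 such genes, 107 were tested, 36 were lower in CRE and 7 were higher, with a median log2 fold change of -0.20. That is 33.6% lower and 6.54% higher, beside 13.8% and 16.4% of all genes tested. The other microtubule-associated proteins had 13 of 32 tested genes lower (40.6%) and 1 higher (3.12%). Lower were Tppp, a microtubule-bundling protein (-1.13, adjusted p = 7.72e-07), Dcx, the doublecortin of migrating and immature neurons (-1.12, adjusted p = 0.000712), and Map7, which recruits kinesin (-0.94, adjusted p = 0.0051), while Mtus1 was higher (0.67, adjusted p = 0.0294). Tppp did not overlap between the groups, at 76.7 to 242 CPM in CRE and 345 to 434 CPM in RFP libraries.

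The remaining stathmins and the collapsin response mediator proteins (CRMPs), which bind tubulin in growth cones, had 5 of 7 genes lower and none higher. That is 71.4% lower, beside 13.8% of all genes tested. Dpysl3 (CRMP4) fell by 1.01 (adjusted p = 1.53e-06), Crmp1 by 0.89 (adjusted p = 7.58e-06) and Stmn4 by 0.69 on the log2 scale (adjusted p = 0.000843). Over all 23 libraries 3 of the 7 were called lower, and 6 without Nedd8Cre1-3. The count over all genes moved as well, from 1692 of 14382 lower over the 23 libraries to 2717 of 14498 without Nedd8Cre1-3. Dpysl3 measured 301 to 839 CPM in CRE and 1045 to 1482 CPM in RFP libraries, without overlap.

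The intermediate filament genes outside the neurofilaments held the largest fitted change of the cytoskeleton lists. Nes (nestin, of neural progenitors and reactive astrocytes) was 605 to 1574 CPM in CRE and 94.8 to 147 CPM in RFP libraries, a log2 fold change of 2.93 (SE 0.16, adjusted p = 1.54e-12). Vim (vimentin, of glia and mesenchymal cells) rose by 1.39 (adjusted p = 1.27e-05), and Synm (synemin, a partner of vimentin and of neurofilaments) fell by 1.31 (adjusted p = 4.07e-07). Prph (peripherin) was low, at 1.79 ± 1.14 CPM (SD, n = 11) in CRE and 4.10 ± 1.93 CPM (n = 10) in RFP libraries (-1.21, adjusted p = 0.0508), and Gfap, the filament of astrocytes, gave -0.22 (adjusted p = 0.589). Of 5 genes tested, 2 were higher (16.4% of all genes tested were) and 1 lower (13.8%). In which cells Nes and Vim rose was not tested.

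**Figure D5:**
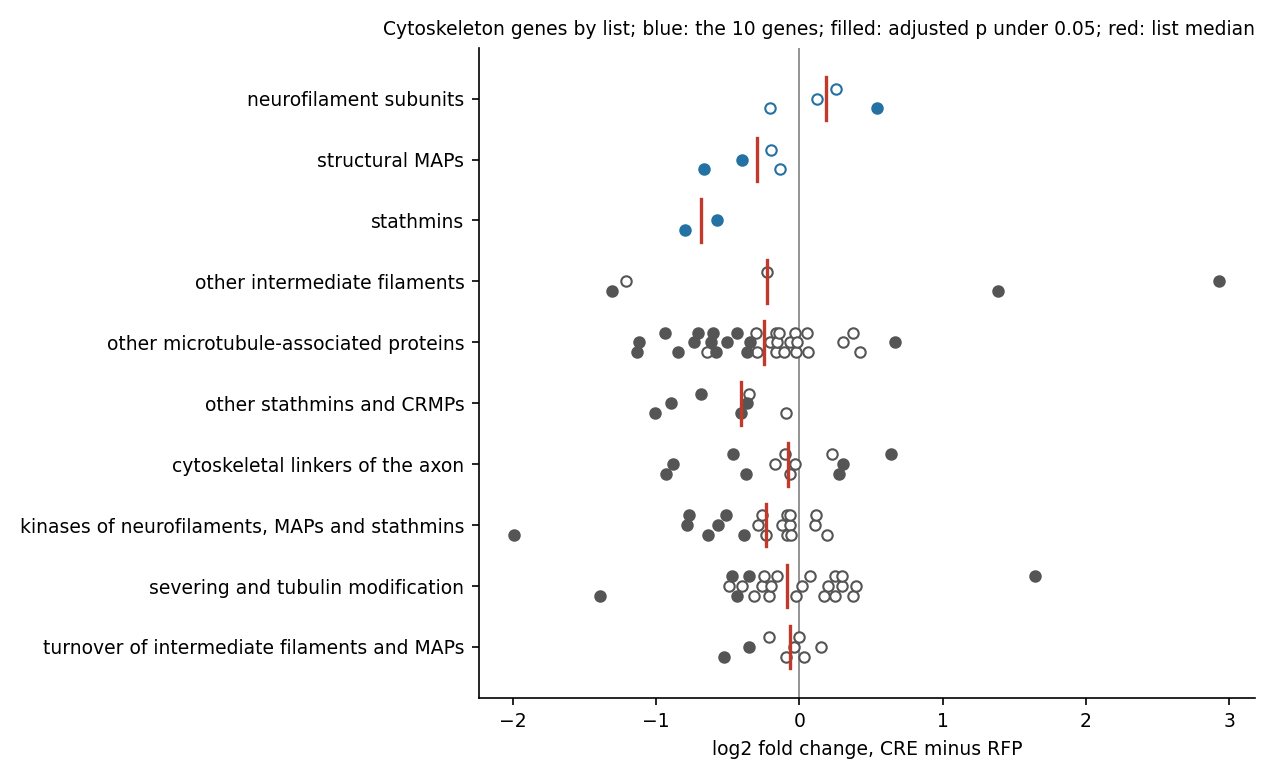
Log2 fold change, CRE minus RFP, of the 10 genes by family (blue) and of the 7 further lists (grey), 1 point per tested gene, filled at an adjusted p under 0.05, with each list's median in red. The 2 stathmins and most of their relatives lie left of 0, and Nes (2.93) and Vim (1.39) lie farthest right of the other intermediate filaments.

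Kinases that phosphorylate neurofilaments, MAPs and stathmins had 7 of 19 genes lower (36.8%, beside 13.8% of all genes tested) and none higher. Camk2a, a calcium-dependent kinase of excitatory neurons, fell by 1.99 on the log2 scale (adjusted p = 8.04e-10), from 844 to 1880 CPM in RFP to 226 to 558 CPM in CRE libraries. Camk2b, its relative, fell by 0.77 (adjusted p = 9.21e-05). Without Nedd8Cre1-3 this list had 11 lower and 1 higher, and the severing and tubulin-modifying enzymes described next had 6 lower and 2 higher in place of 4 and 1. Over all genes, 2717 of 14498 were then lower and 2790 higher, beside 1996 and 2374 of 14488 in the main comparison.

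Linkers that tie the axonal filaments together and to the membrane were divided. Of 12 genes, 3 were higher (25%, beside 16.4% of all genes tested) and 4 lower (33.3%, beside 13.8%). The plakins Plec (0.64, adjusted p = 0.00789) and Dst (0.28, adjusted p = 0.0128) rose with Sptan1, the alpha spectrin (0.30, adjusted p = 0.0224). Add2 (adducin, -0.93, adjusted p = 4.11e-08) and Ank2 (ankyrin, -0.46, adjusted p = 0.00263) fell. Of the severing and tubulin-modifying enzymes, 4 of 24 were lower (16.7%, near the 13.8% of all genes tested) and 1 higher (4.17%, where 16.4% of all were), so that the count says nothing particular of the list. Named by rule, the called genes were Fignl1, a relative of fidgetin (-1.39, adjusted p = 0.00383), Katnal1, a relative of the severing enzyme katanin (-0.47, adjusted p = 0.001), and Matcap1, which removes the last tyrosine of tubulin (-0.44, adjusted p = 0.0413), which fell, and Fignl2 (median 3.50 CPM in CRE and 0.967 CPM in RFP libraries), which rose by 1.64 (adjusted p = 0.0099).

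Nedd8 is attached to cullins, the scaffolds of a family of ubiquitin ligases. Cul3, one of these scaffolds, was not called: it was 115 ± 28.8 CPM (SD, n = 11) in CRE and 117 ± 22.2 CPM (n = 10) in RFP libraries (log2 fold change -0.04, interval -0.36 to 0.29). In the list of filament and MAP turnover, 2 of 8 genes were lower (13.8% of all genes tested were), Rbx1, the RING subunit shared by cullin ligases (-0.53, adjusted p = 0.00345), and Trim32 (-0.35, adjusted p = 0.0012). RNA does not measure how much filament protein these ligases remove.

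Markers of the cell types in the dish moved with the groups. The 10 neuron markers had 4 lower in CRE (13.8% of all genes tested were) and none higher (median -0.32), with a summed level of 3103 to 4893 CPM in CRE and 5001 to 5834 CPM in RFP libraries. Among them Rbfox3 (NeuN) fell by 1.03, Syt1 by 0.91 and Syn1 (synapsin 1) by 0.77 on the log2 scale (adjusted p = 9.87e-05, 0.000806 and 1.23e-06). All 7 markers of dividing cells had negative values and 6 were called lower (85.7%, beside 13.8% of all genes tested). Their summed levels were 5.45 to 178 CPM in CRE and 169 to 282 CPM in RFP libraries. Stmn1 is known to be abundant in such cells and Map2 and Stmn2 in neurons, and a link of their lower RNA with these markers was not tested.

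The oligodendrocyte lineage had 5 of 8 tested markers lower (62.5%, beside 13.8% of all genes tested), among them Pdgfra, Cspg4 and Sox10. The markers of this lineage summed to 425 to 1910.4 CPM in CRE and 647 to 1873 CPM in RFP libraries. Astrocyte markers were mixed, with 2 of 9 higher, Sox9 and Gja1 (22.2%, near the 16.4% of all genes tested), and 4 lower (44.4%, beside 13.8%). Sums of the astrocyte markers ran from 1640.0 to 5276 CPM in CRE and from 3693 to 7939 CPM in RFP libraries. Among 10 markers of GABA neurons, 4 were higher (40%, beside 16.4% of all genes tested), Dlx5, Npy and Pvalb with the largest changes. Sst, 1 of the 10 (10%, beside 13.8%), was lower. Pvalb was low, with a median of 4.00 CPM in CRE and 0.410 CPM in RFP libraries, and Npy exceeded every RFP library in only 2 CRE libraries. Without Nedd8Cre1-3, 3 of the 10 were higher and 1 lower, and over the 19 libraries 2 were higher and 2 lower. Microglia markers together held at most 7.70 CPM in any library and endothelial and mesenchymal markers at most 236 CPM, with Cldn5 at 3 counts or fewer in every library. The part of these markers in the changes of the 10 genes was not tested.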

How the data were processed

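The members and gene lists were chosen with earlier results of these data known. The authors made the libraries with the Illumina Stranded mRNA Prep kit and aligned reads to GRCm39, and per the labels they used bcl2fastq 2.20.0.422, STAR 2.7.8a and featureCounts 1.5.0-p1. They deposited raw counts per gene for 23 libraries. The strand setting and the treatment of multi-mapping reads are not given in the sources used here. Coordinates, exon overlaps and canonical transcripts came from GENCODE M39, a later release than the authors used.

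CRE and RFP were compared over 21 libraries with edgeR 4.0.16 in R 4.3.3 (filterByExpr, TMM factors, robust glmQLFit, glmQLFTest). CPM used TMM factors over all 23 libraries, and 0.5 was added before log2. Count ratios were compared in scipy 1.17.1. Named were the 10 members, up to 3 called genes per direction and further list, Cul3, Nedd8, and the 2 genes most like Nefl, Map2 and Stmn2. Some genes that this rule takes are not reported here. Prph, Gfap and the exon neighbours were named after their values were seen. Alternatives were all 23 libraries, those left by Methods, 19 libraries, DESeq2 1.42.0, RLE factors, no filter, blocks by culture and by culture with library number, counts added up per culture, and each culture left out. Leaving out Nedd8Cre1-3 or Nedd8RFP2-4 and removing each library's GC trend (a loess curve as an offset) were added after seeing the data. The comparison was tested on simulated data, and no 2 libraries of one culture and group agreed within sampling noise.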

Additional observations from a re-analysis of the deposited data

Results flagged for a closer look

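Among the RFP libraries, a group of 10, each of the 10 genes and 6 ratios was checked for a library far from the rest, with a gap test that flags about 1 in 20 groups by chance. Map1b was far higher in Nedd8RFP3-3, at 2943 CPM, than in the other 9 RFP libraries, which ran from 1975 to 2440 CPM. The ratio of Nefm to Nefl counts was 1.18 in Nedd8RFP2-4 and at most 0.791 in the other 9. Nedd8RFP2-4 is the RFP library with a mitochondrial share of 3.43% and a GC trend, and the part of either in this ratio was not tested.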

How the results depend on the processing

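The direction of all 10 genes held in all 15 alternatives, and 139 of 150 values of single genes kept their side of the threshold. Over all genes, 4370 were called, 6920 without a filter on low counts, and, over the cultures left out in turn, 2114 to 3730. The 4 genes lower in CRE became 2 to 4 when a culture was left out. The 1 gene higher in CRE became 0 over 19 libraries, 0 with counts summed per culture, 0 without Nedd8Cre1-3, and 0 to 1 when a culture was left out. With counts summed per culture, edgeR's test called Stmn2 (-0.79, adjusted p = 0.000352), Map2 (-0.65, adjusted p = 0.000749), Stmn1 (-0.59, adjusted p = 0.00405) and Map1b (-0.41, adjusted p = 0.0218). Nefm was not called in that fit (0.46, adjusted p = 0.343). The log2 ratio of Nefm to Nefl differed by 0.770 and that of Mapt to Map2 by 0.605 as means of 3 cultures, where exact permutation cannot go below a p of 0.1 (adjusted p = 0.3 for both). With a culture left out in turn, exact permutation tests gave 0.616 to 0.984 for Nefm over Nefl, 0.359 to 0.769 for Mapt over Map2 (neither called without culture 1), 0.199 to 0.589 for Nefh over Nefl and 0.148 to 0.509 for Ina over Nefl (both called without culture 3). Ina over Nefl was also called over all 23 libraries (0.588, adjusted p = 0.0496). The cause of these shifts was not tested. Deviations of same-numbered cultures from the group means correlated at a Pearson's r of 0.0353, 0.0049 and 0.152 over 14488 genes. Between cultures of different number r ran from -0.1975 to 0.1606. With 3 cultures per group this cannot tell whether a number marks a shared preparation, and the main comparison did not use the numbers as pairs. With culture number as a replicate block, 4267 genes were called, with culture and library number as a replicate block 3121, both with the same 4 members lower and 1 higher, and permuted within cultures Ina over Nefl was called (0.397, adjusted p = 0.0333).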
